A study of Mus musculus with 4 samples.

Results

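Hmgcs1, Idi1, Fdft1, Sqle and Insig1 are 5 of the 30408 genes listed for at least 1 of the libraries of this study, and were chosen by name as sterol pathway genes. Each was measured in every library as its level, in counts of unique molecular identifiers (UMIs) scaled by the total UMIs of a cell class (CPM), and as the share of cells with at least 1 UMI. The study sorted tumours of MB49, a mouse bladder carcinoma cell line, from male and from female mice into CD45-positive cells (leukocytes) and CD45-negative cells, and sequenced the RNA of single cells on the BD Rhapsody microwell system to ask how immune cells bear on the sex difference in tumour growth. The 4 groups (male CD45-positive, female CD45-positive, male CD45-negative, female CD45-negative) had 1 library each, and every group shared the same tumour line, which came from a male animal. The strain, the age and the number of the mice, and any pooling of tumours, were not given in the sources used here. With 1 library a group no difference has a replicate check, so no p-value is given, and every interval below is a 95% interval for counting error only.

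Cells make cholesterol from acetyl-CoA through the mevalonate pathway. HMG-CoA synthase (Hmgcs1) acts at its start, isopentenyl-diphosphate isomerase (Idi1) makes the isoprenoid building blocks, squalene synthase (Fdft1) commits them to sterols, and squalene epoxidase (Sqle) takes the first oxygen-dependent step towards the sterol ring. The genes of these enzymes are targets of the transcription factor SREBP2, which is released from the endoplasmic reticulum when sterols are low. Insig1 encodes the membrane protein that holds the SREBP escort SCAP in the endoplasmic reticulum when sterols are high, and is itself an SREBP target. None of the 5 encodes a receptor for lipoprotein uptake; genes of uptake are described further on from a list of their own.

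On mm10, Hmgcs1 lies at chr13:119690379-119708260 (plus strand), Idi1 at chr13:8885501-8892451 (plus), Sqle at chr15:59315077-59331192 (plus), Insig1 at chr5:28071363-28078662 (plus) and Fdft1 at chr14:63145150-63179578 (minus). Sqle and Insig1 overlapped no other annotated gene. The antisense gene Gm48342 over Hmgcs1 had 0 to 2 UMIs a library, and Gm48574 over Idi1 had 0 to 6. Fdft1 overlaps Ctsb, a cathepsin gene on the opposite strand. Whether the counting used strand was not given in the sources used here, so reads of Fdft1 and Ctsb in the overlap cannot be told apart. The last 500 bases of Idi1 matched 4 other genes at 90% identity or more (Gm13502, Gm35570, Gm7654 and Gm8911), so its counts are uncertain. The same search found 0 such copies for each of the other 4 genes.

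RefSeq promoter sequence (GRCm38.p6) was matched for 3 of the 5 genes. For each, the 250 bases before the RefSeq start, which differs from the gene start above, were searched on both strands. The motifs sought were the sterol response element TCACNCCAC, the CCAAT box and the E-box CACGTG. They were chosen because SREBP is known to act through such elements beside CCAAT boxes. Their part in the levels below was not tested. The window of Hmgcs1, chr13:119690101-119690350, held 1 sterol response element, read as TCACCCCAC from 137 to 129 bases before the start, and 3 CCAAT boxes, read as ATTGG on the strand shown. The window of Insig1 held 1 CCAAT box and 1 E-box, from 101 to 96 bases before its RefSeq start. That window ends at chr5:28071411, inside the gene as placed above, and only the part before the gene, chr5:28071162-28071362, is printed. The capitals mark these matches, and both sequences are on the plus strand.
Hmgcs1: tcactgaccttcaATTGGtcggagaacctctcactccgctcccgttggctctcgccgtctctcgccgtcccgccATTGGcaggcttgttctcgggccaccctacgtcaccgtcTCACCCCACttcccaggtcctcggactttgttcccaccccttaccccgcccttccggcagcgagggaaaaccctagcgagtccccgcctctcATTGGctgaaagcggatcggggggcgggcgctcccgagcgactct
Insig1: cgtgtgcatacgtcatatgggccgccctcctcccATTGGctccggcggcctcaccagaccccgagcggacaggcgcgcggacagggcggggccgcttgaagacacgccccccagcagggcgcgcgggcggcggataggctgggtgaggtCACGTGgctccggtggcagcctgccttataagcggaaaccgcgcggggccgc
The third window, of Idi1, held 2 CCAAT boxes and neither of the other elements. It ends at chr13:8885605, and both boxes lie inside the gene as placed above. Of 32851 mouse promoter windows of the same length, 1.05% held TCACNCCAC, 33.8% CCAAT and 6.02% CACGTG. No motif matches overlapped in the 3 windows. A match is a description of the letters and not evidence of binding.

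The deposited matrices held 22115 barcodes (5152 to 6023 a library), of which 19372 were kept, and total UMIs per library ran from 37705608 to 62273035. Kept cells had medians of 5980 (male) and 6047 (female) UMIs after CD45-positive sorting and of 9919 and 10597.5 after CD45-negative sorting. Clusters were named from marker genes, so each class name stands for cells like that type. Carcinoma cells (4675 from the male and 3400 from the female host) filled the CD45-negative libraries beside 33 and 68 fibroblasts, whose cluster also carried pericyte markers. Mononuclear phagocytes (2784 and 3321 cells) led the CD45-positive libraries. This class took in a cluster with markers of type 2 dendritic cells (355 and 208 cells). It also took in a low-depth cluster with macrophage markers (342 and 506 cells, median of 770 UMIs). A low-depth cluster with carcinoma markers (761 and 414 cells, medians of 1075 and 934.5 UMIs) stayed unnamed, and a cluster with macrophage and T cell markers (265 and 261 cells) was kept apart as mixed. Type 1 dendritic cells numbered 221 for the male host and 19 for the female host, so only the male library gave them a level. The barcodes were running numbers, so barcodes shared between libraries could not be counted. None of the 5 genes was among the 2000 variable genes the clusters were built on.

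Sqle stood out in the tumour cells. Carcinoma cells held Sqle at 305 CPM (300.5 to 309) with a male host and 336 CPM (331 to 342) with a female host. Fibroblasts held 110 CPM (74.3 to 157) and 103 CPM (79.7 to 132), and mononuclear phagocytes 76.8 CPM (73.6 to 80.2) and 77.2 CPM (74.1 to 80.4). Every carcinoma value was above every value of the other named classes, and the carcinoma cells that had passed the CD45-positive gate (92 and 55 cells) read 248 and 335 CPM. Among the lymphocytes, Sqle ran from 83.6 CPM (66.8 to 103) in male regulatory T cells and 57.4 CPM (44.5 to 72.9) in male CD8 T cells down to 34.7 CPM in male and 32.9 CPM in female natural killer (NK) cells. Neutrophils were lowest among groups of at least 50 cells, at 15.3 CPM (8.77 to 24.9) on 16 UMIs and 17.0 CPM (5.51 to 39.6) on 5 UMIs. From the lowest to the highest of the 20 groups of at least 50 cells (a class in a library), the level of Sqle spanned 21.9-fold. Of the 19 pairs of neighbours in that order, 17 had overlapping intervals.

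Hmgcs1 was less tied to the tumour cells. Its level in carcinoma cells was 171 CPM (168 to 175) in the male host and 163 CPM (160 to 167) in the female one. Fibroblasts read 268 CPM (210 to 337) and 170 CPM (139 to 206). The female fibroblast interval covered the carcinoma value of that host, the male one lay above it, and 1 of the 33 male fibroblasts gave 24.7% of the UMIs behind it. Regulatory T cells (145 and 112 CPM), mature dendritic cells (141 and 126 CPM) and CD4 T cells (122 and 92.7 CPM) were next to the carcinoma level, while mononuclear phagocytes held 103 CPM (99.5 to 107) and 91.0 CPM (87.6 to 94.5). CD8 T cells (76.3 and 52.9 CPM), NK cells (62.0 and 51.1 CPM) and male type 1 dendritic cells (59.1 CPM) were lower. Among groups of at least 50 cells neutrophils were lowest, at 27.8 CPM (18.6 to 39.9) and 34.0 CPM (16.3 to 62.4). The span over the 20 groups was 6.16-fold, and 19 of 19 neighbours in the order overlapped.

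Insig1, the feedback gene, had the narrowest span of the 4 genes with UMIs in every group, at 3.32-fold. Carcinoma cells held 183 CPM (179 to 186) in the male host and 165 CPM (161 to 169) in the female one, and phagocytes 137 CPM (133 to 141) and 163 CPM (159 to 168). In the female host these intervals overlapped. Fibroblasts read 224 CPM (171 to 288) and 141 CPM (113 to 174), regulatory T cells 144 and 75.9 CPM, CD4 T cells 128 and 116 CPM, mature dendritic cells 91.7 and 129 CPM, and CD8 T cells 95.1 and 80.7 CPM. Neutrophils kept a level of 70.0 CPM (54.9 to 88.0) with a male host and 64.5 CPM (38.8 to 101) with a female host, which overlapped the NK cells at 83.0 and 65.7 CPM. In the order of levels, 18 of 19 neighbours overlapped.

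Fdft1 was counted less deeply, and carcinoma cells of the CD45-negative libraries were at its upper end. They held 41.6 CPM (39.98 to 43.3) and 44.3 CPM (42.3 to 46.3), phagocytes 25.3 CPM (23.4 to 27.2) and 23.7 CPM (22.0 to 25.6), and mature dendritic cells 40.3 CPM (28.2 to 55.75) and 29.0 CPM (16.9 to 46.4). The carcinoma cells in the CD45-positive libraries did not all share that level, at 23.9 CPM (16.6 to 33.2) on 35 UMIs in the male and 37.96 CPM (26.6 to 52.6) on 36 UMIs in the female library. Neutrophils read 4.80 CPM on 5 UMIs and 13.6 CPM on 4 UMIs. The span was 9.23-fold, and 19 of 19 neighbours overlapped. Ctsb, which shares bases with Fdft1, ran the other way, at 798 and 867 CPM in carcinoma cells and 4637 and 5054 CPM in phagocytes. Per 1000 UMIs of Ctsb there were 52.2 and 51.0 of Fdft1 in carcinoma cells and 5.45 and 4.70 in phagocytes.

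Idi1 was near the limit of detection everywhere. It had 81 to 130 UMIs in a whole library, and read 1.99 CPM (1.65 to 2.39) and 2.45 CPM (1.996 to 2.97) in carcinoma cells against 2.10 CPM (1.59 to 2.72) and 2.30 CPM (1.79 to 2.92) in phagocytes. No UMI of Idi1 was seen in neutrophils, where 3 counts would be 2.88 CPM (male) and 10.2 CPM (female), so a level like that of carcinoma cells was not detectable there. All 19 neighbours in its order overlapped, and the order is not read further.

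**Figure D1:**
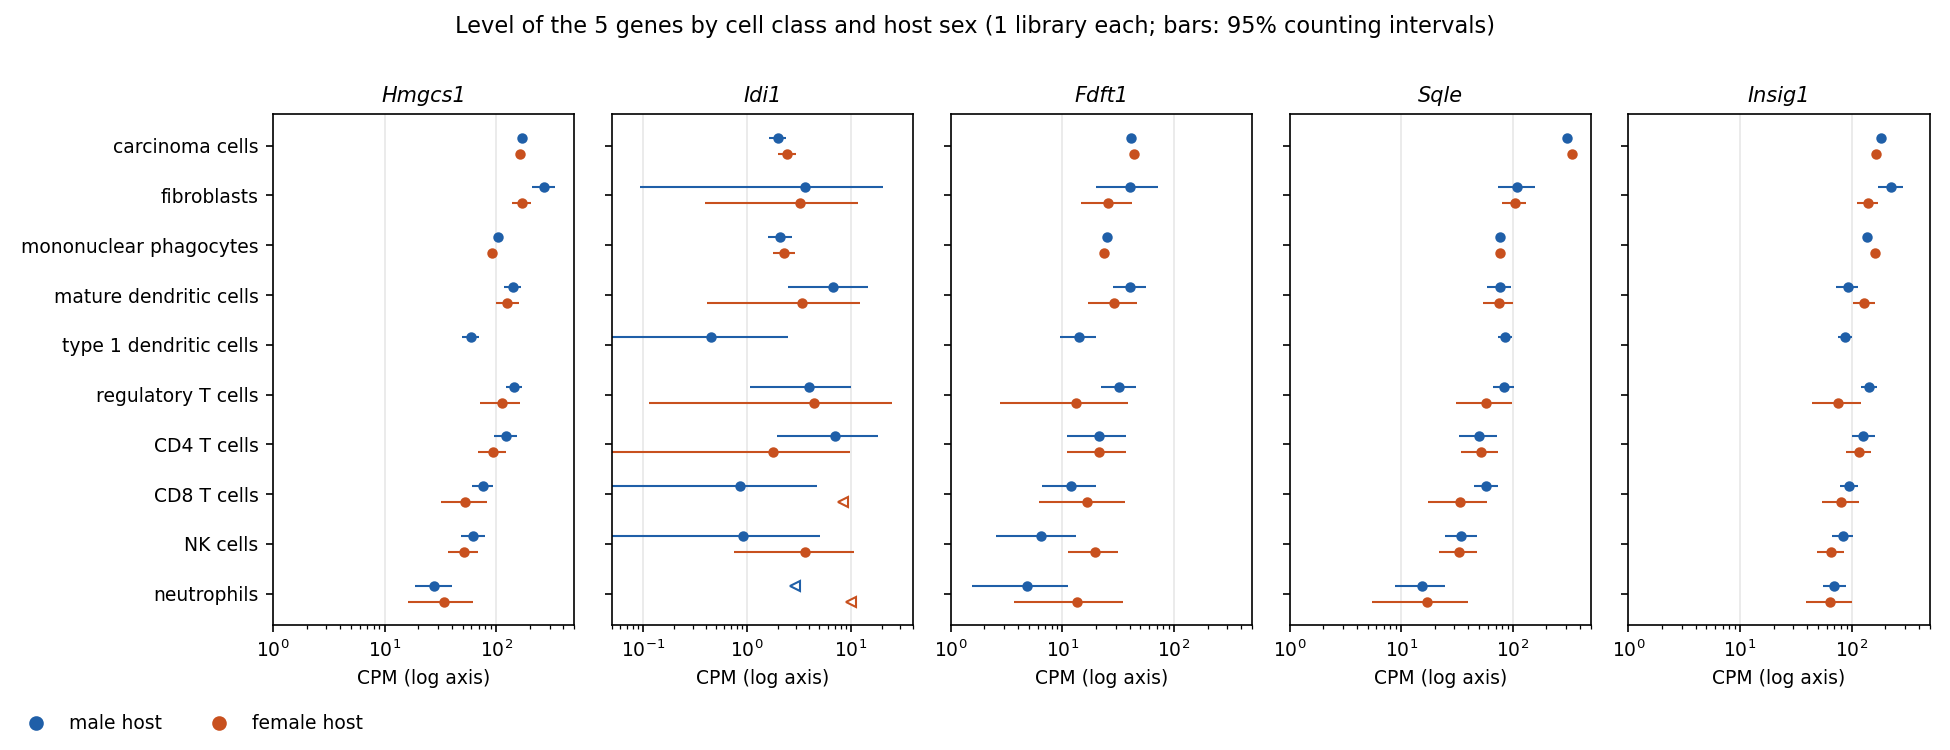
Level of each gene (CPM, log axis; the Idi1 panel has its own range) in each class, male host in blue and female host in orange, 1 library each. Points are CPM of summed UMIs, bars 95% counting intervals, and open triangles mark 0 UMIs, drawn at the level of 3 counts. The carcinoma points of Sqle (305 and 336 CPM) lie right of all others in that panel. Those of Insig1 and Hmgcs1 lie right of the T cell points and left of the male fibroblast point.

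The share of cells with a UMI gave the same order of carcinoma cells, phagocytes and neutrophils, on very unequal depth. Median UMIs per cell were 11077 and 11511 in carcinoma cells (male and female host), 9386 and 7148 in phagocytes and 1254 and 1192 in neutrophils. Neutrophils serve here only as the lowest class, since no class is known to lack this pathway. Sqle was seen in 78.8% (77.6 to 79.9) and 80.9% (79.5 to 82.2) of carcinoma cells, 38.5% (36.7 to 40.3) and 34.6% (33.0 to 36.3) of phagocytes, and 1.89% and 2.39% of neutrophils. With every cell thinned to 1000 UMIs these shares were 23.6% and 24.8%, 7.06% and 6.93%, and 0.784% and 0.714%. Thinning left out 40 and 17 carcinoma cells, 249 and 362 phagocytes and 179 and 69 neutrophils. At equal depth Sqle was thus still seen in a larger share of carcinoma cells than of phagocytes.

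For Hmgcs1 the shares were 59.0% and 63.2% of carcinoma cells, 43.8% and 37.7% of phagocytes and 3.34% and 4.31% of neutrophils. Thinned, they were 13.4% and 13%, 9.07% and 7.71%, and 1.96% and 0.714%. For Insig1 they were 67.4% and 66.8% of carcinoma cells, 54.6% and 55.7% of phagocytes and 8.27% and 7.18% of neutrophils, and thinned 14.4% and 15%, 11.5% and 13.1%, and 4.51% and 2.86%. The gap between carcinoma cells and phagocytes was thus wider for Sqle than for these genes in both hosts, thinned or not, though the difference between genes was not tested. Fdft1 was seen in 29.7% and 34.4% of carcinoma cells, 18.2% and 15.7% of phagocytes and 0.726% and 1.91% of neutrophils. Thinned, it was seen in 3.93% and 3.55%, 2.21% and 1.82%, and 0.392% and 0.714%, and a share of 0.714% is a single cell of the female neutrophils. Idi1 was seen in 2.33% and 2.85% of carcinoma cells and in 1.94% and 1.84% of phagocytes, and after thinning in 0.325% or fewer of either.

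Set against phagocytes of the same host, 3 of the 5 genes were at least 1.5-fold higher in carcinoma cells in both hosts, where 40.8% of 2487 well-counted genes (at least 100 UMIs in all and 100 CPM in either group) passed the same mark with a male host and 39.7% of 2501 with a female host. The ratio of Sqle was 3.97 (3.79 to 4.15) with a male host and 4.36 (4.17 to 4.55) with a female host. Hmgcs1 had 1.66 (1.59 to 1.73) and 1.79 (1.72 to 1.88), and Fdft1 1.65 (1.51 to 1.79) and 1.86 (1.71 to 2.04). The ratio of Insig1 was 1.34 (1.29 to 1.39) in the male host and 1.01 (0.975 to 1.05) in the female host, and that of Idi1 0.95 and 1.06. The median log2 ratio of the 5 genes was 0.72 and 0.84, against 0.32 and 0.26 over the well-counted genes. Each such ratio compares 2 libraries from different gates as well as 2 cell classes, and gate and class cannot be told apart.

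The 92 and 55 carcinoma cells inside the CD45-positive libraries shared gate and library with the phagocytes. Their ratio of Sqle to those phagocytes was 3.23 (2.88 to 3.61) with a male host and 4.34 (3.85 to 4.89) with a female host. Hmgcs1 was at 1.44 (1.25 to 1.65) and 1.67 (1.40 to 1.97), and Insig1 at 1.44 (1.27 to 1.62) and 1.31 (1.14 to 1.51). Fdft1 was at 0.944 (0.652 to 1.33) for the male host, so its ratio of 1.65 across the gates was not seen within that library, and at 1.6 (1.11 to 2.24) for the female host. Thus 1 of 5 genes (Sqle) was at least 1.5-fold higher in carcinoma cells with a male host and 3 of 5 with a female host, beside 40.1% and 36.2% of well-counted genes. In the other direction 0 and 1 passed, the latter Idi1 on 1 UMI, beside 27.8% and 28.1%. These cells also carried the macrophage gene Msr1 at 30.7 and 82.3 CPM, against 0.136 and 0.119 CPM in the carcinoma cells of the CD45-negative libraries, and the part of such RNA in these ratios was not tested.

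Against fibroblasts of the same CD45-negative library, Sqle was 2.77-fold (1.94 to 4.11) and 3.25-fold (2.54 to 4.22) higher in carcinoma cells. Sqle was 1 of 1 member past 1.5-fold in that direction in the male host and 1 of 2 in the female host, the other being Fdft1 at 1.71 (1.05 to 3.0), and of the well-counted genes 40.1% and 44.4% passed. In the opposite direction, Hmgcs1 in the male host had a ratio of 0.639 (0.508 to 0.816) and Idi1 0.544 (0.0957 to 21.7) on 1 fibroblast UMI, where 20.3% of genes passed. In the female host Hmgcs1 had 0.962 (0.794 to 1.18), and 0 of 5 passed, where 21.1% of genes did. Insig1 was at 0.817 (0.636 to 1.07) and 1.17 (0.949 to 1.47), on either side of 1. These ratios rest on 33 and 68 fibroblasts.

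Within the CD45-positive libraries, phagocytes held 4 of the 5 genes at least 1.5-fold above neutrophils in both hosts, beside 45.3% and 41.1% of the well-counted genes. The ratio was 5.01 (3.08 to 8.78) and 4.55 (1.95 to 14.0) for Sqle, 3.71 (2.58 to 5.56) and 2.68 (1.46 to 5.60) for Hmgcs1, and 1.96 (1.55 to 2.5) and 2.53 (1.62 to 4.2) for Insig1. For Fdft1 it was 5.27 (2.25 to 16.3) and 1.75 (0.68 to 6.43), and the female interval reached below 1. Among T cells of the male host, regulatory T cells were at least 1.5-fold above CD8 T cells for 3 of the 4 genes with enough UMIs, beside 15.7% of genes: Hmgcs1 1.90 (1.45 to 2.5), Fdft1 2.71 (1.41 to 5.47) and Insig1 1.51 (1.17 to 1.95), with Sqle at 1.46 (1.04 to 2.04). In the female host, with 72 and 119 cells, 2 of 3 passed beside 17.5% of genes, namely Hmgcs1 at 2.11 (1.12 to 4.05) and Sqle at 1.74 (0.731 to 4.16). Insig1 was at 0.94 (0.484 to 1.77) there.

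Between male and female hosts the members differed little. In carcinoma cells 0 of the 5 genes passed 1.5-fold in either direction, where 9.8% of 2052 genes did. The male to female ratio of CPM was 1.05 (1.02 to 1.08) for Hmgcs1, 0.815 (0.62 to 1.07) for Idi1, 0.94 (0.885 to 0.999) for Fdft1, 0.907 (0.887 to 0.927) for Sqle and 1.11 (1.08 to 1.14) for Insig1. The median log2 ratio was -0.09 for the 5 genes and 0.00 over all genes. The intervals of 4 genes leave out 1, but they hold the counting error of a pair of libraries and not the spread between animals. The small differences were not stable: with cells thinned to 1000 UMIs the log2 ratio was -0.01 for Insig1 and 0.20 for Fdft1, and with the mean of each cell's CPM it was -0.02 for Hmgcs1, while Sqle stayed between -0.16 and -0.08 under the alternatives run. Over the whole CD45-negative gate the count was also 0 of 5, beside 9.9% of genes. In the few carcinoma cells of the CD45-positive libraries 1 of 4 measured members passed, Fdft1 at 0.628 (0.383 to 1.03), beside 13.5% of genes. All 4 ratios lay below 1 there, with Sqle at 0.74 (0.635 to 0.863), Insig1 at 0.92 (0.766 to 1.11) and Hmgcs1 at 0.979 (0.789 to 1.22), so Insig1 and Hmgcs1 did not point the way they did in the CD45-negative libraries.

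In mononuclear phagocytes 0 of 5 passed as well, where 10.2% of 1862 genes did. Insig1 had the lowest ratio, 0.84 (0.805 to 0.877), Hmgcs1 the highest, 1.14 (1.08 to 1.2), and Sqle 0.995 (0.937 to 1.06). Fdft1 was at 1.06 and Idi1 at 0.913. Over the whole CD45-positive gate, 0 of 5 passed beside 9.82% of genes, with Insig1 at 0.816 (0.786 to 0.847) and Hmgcs1 at 1.10 (1.05 to 1.15). The mixed cluster of macrophage and T cell markers, which is outside the phagocyte class, had Insig1 at 117 CPM (male) and 164 CPM (female), a ratio of 0.712 (0.625 to 0.811). So Insig1 was lower in the male host in pooled phagocytes. In pooled carcinoma cells of the CD45-negative libraries it was higher, unless cells were thinned. It was not higher in the carcinoma cells of the CD45-positive libraries. In carcinoma cluster 2, described below, it was lower, at 0.832 (0.747 to 0.928). The difference between these ratios was not tested.

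The lymphocyte and neutrophil comparisons rested on few UMIs. In CD8 T cells 1 gene, Sqle, passed 1.5-fold, at 1.72 (0.922 to 3.49) on 67 and 12 UMIs, beside 13.2% of genes. In NK cells 1 passed, Fdft1 at 0.328 (0.114 to 0.843) on 7 and 16 UMIs, beside 11.8%. In CD4 T cells and neutrophils 0 passed, beside 10.4% and 14.2%. The classes with under 100 cells in a library gave wide values. In regulatory T cells 2 of 4 were higher in the male library, Insig1 at 1.89 (1.14 to 3.34) and Fdft1 at 2.42 (0.76 to 12.4) on 33 and 3 UMIs, beside 8.55% of genes in that direction. In fibroblasts 3 of 4 were, namely Hmgcs1 at 1.58 (1.15 to 2.15), Insig1 at 1.59 (1.13 to 2.23) and Fdft1 at 1.56 (0.655 to 3.58), beside 13.5%. Members were counted from 20 UMIs and the well-counted genes from 100 UMIs and 100 CPM. The counts of members and the shares beside them are thus not on one footing. In mature dendritic cells 0 of 4 passed, beside 16.1%, and Insig1 was at 0.709 (0.512 to 0.981).

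**Figure D2:**
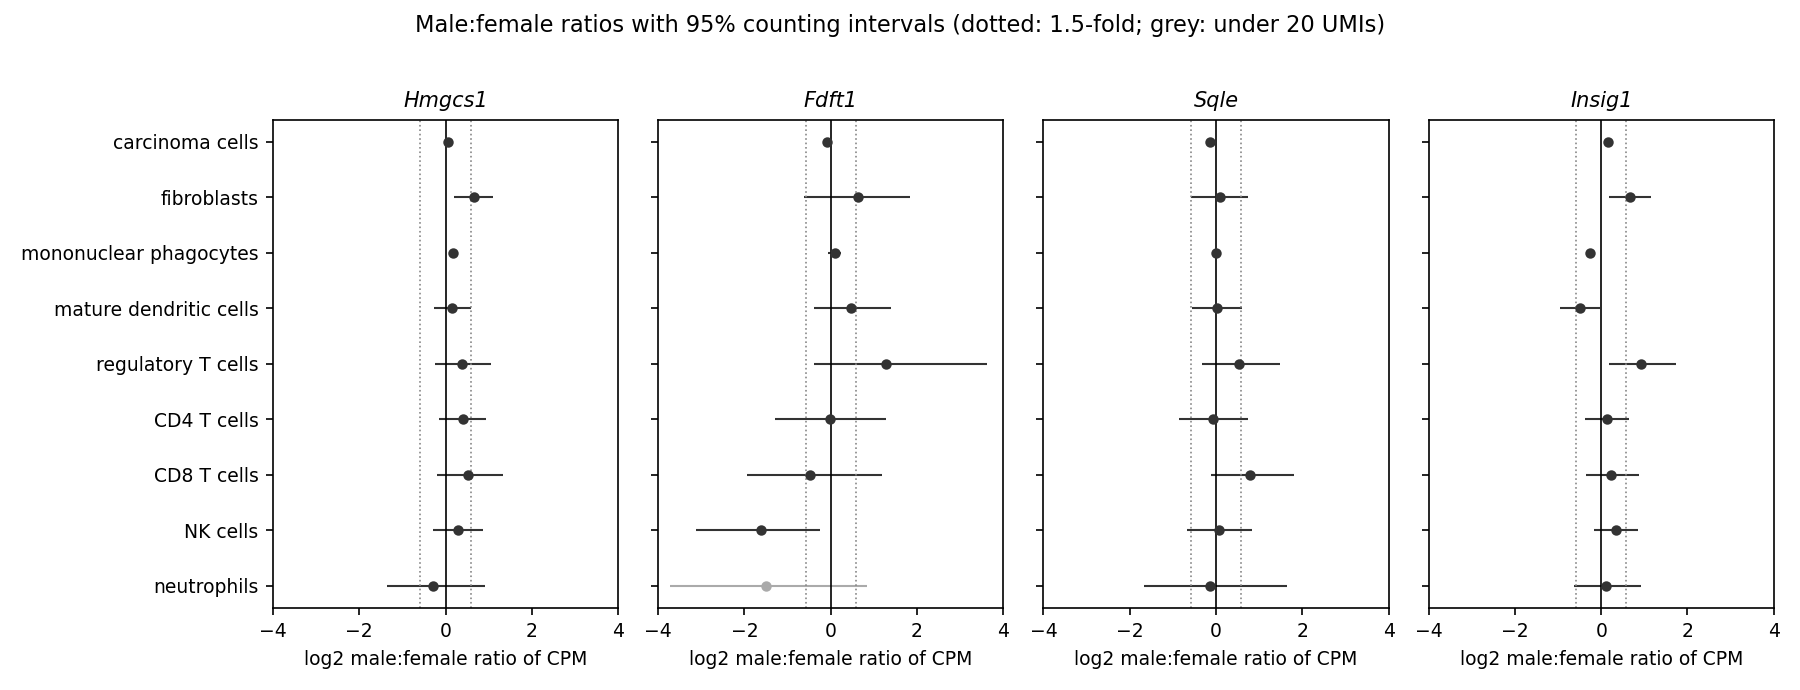
Log2 male to female ratio of CPM for 4 genes in each class, with bars for 95% counting intervals, dotted lines at 1.5-fold and grey for a gene with under 20 UMIs in the pair. Carcinoma cells and phagocytes lie inside the dotted lines for all 4 genes, and Insig1 lies left of 0 in phagocytes and mature dendritic cells and right of it in carcinoma cells, fibroblasts and regulatory T cells.

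The classes were not made of the same clusters in both hosts. Carcinoma cluster 2 held 1857 male-host and 194 female-host cells, cluster 1 held 648 and 1676, and cluster 15 had 382 cells in the male library alone among clusters of at least 50 cells. Over these clusters Sqle ran from 242 to 346 CPM for the male host and from 227 to 364 CPM for the female host, Hmgcs1 from 128 to 210 and from 127 to 168 CPM, Insig1 from 135 to 196 and from 123 to 218 CPM, and Fdft1 from 30.5 to 48.0 and from 35.1 to 49.2 CPM. Cluster 14, led by interferon-response genes, had the lowest Sqle and Insig1 in both libraries. In the male library its intervals overlapped those of cluster 15, at 221 to 263 against 232 to 264 CPM for Sqle. Cluster 0, led by genes of cell division, had the highest Fdft1 in both, at 48.0 CPM (45.4 to 50.6) and 49.2 CPM (46.1 to 52.4). Cluster 1 overlapped it in the male library, at 47.7 CPM (42.8 to 52.9), and cluster 2 in the female library, at 39.8 CPM (30.9 to 50.3).

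Compared cluster by cluster, the male to female ratios of the members did not all point one way in carcinoma cells. In cluster 2 they were below 1 for all 4 well-counted members, at 0.774 (0.712 to 0.844) for Sqle, 0.832 (0.747 to 0.928) for Insig1, 0.878 (0.776 to 0.995) for Hmgcs1 and 0.767 (0.596 to 1.00) for Fdft1. In cluster 0 they were 1.15 (1.1 to 1.2) for Insig1, 1.10 (1.06 to 1.15) for Hmgcs1 and 0.901 (0.873 to 0.929) for Sqle. In cluster 1 they were 1.28 (1.21 to 1.37) for Hmgcs1, 1.08 (1.01 to 1.16) for Insig1 and 1.07 (1.02 to 1.12) for Sqle. The ratios of Insig1 and Hmgcs1 were above 1 in 3 of the 4 carcinoma clusters that both hosts filled, and that of Sqle in 2. By interval, Insig1 and Hmgcs1 each lay above 1 in 2 clusters and below it in 1. Sqle lay above 1 in 1 cluster and below it in 2.

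Of the 6 phagocyte clusters that both hosts filled, the interval of Insig1 lay below 1 in 4. Those clusters had 0.791 (0.695 to 0.897), 0.747 (0.685 to 0.816), 0.628 (0.521 to 0.753) and 0.77 (0.637 to 0.931), and the other clusters 1.00 (0.694 to 1.44) and 1.04 (0.933 to 1.17). The pooled Insig1 ratio of 0.84 therefore had its sign within most of its clusters. Hmgcs1 had no such pattern: its interval lay above 1 in 1 cluster, at 1.42 (1.22 to 1.66), and below 1 in 2, at 0.829 (0.748 to 0.92) and 0.752 (0.584 to 0.956), and the unweighted mean over the 6 clusters was -0.11 on the log2 scale, against 0.18 pooled. A monocyte cluster had 97 cells in the female library and 36 in the male one, under the 50 needed for a cluster level. In the female library it held Insig1 at 136 CPM (102 to 177), with Hmgcs1 at 37.7 CPM (21.1 to 62.1), Sqle at 17.6 CPM (7.07 to 36.2) and 0 UMIs of Fdft1. Its Hmgcs1 and Sqle were the lowest of the 7 phagocyte clusters of that library, and its Insig1 was not.

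**Figure D3:**
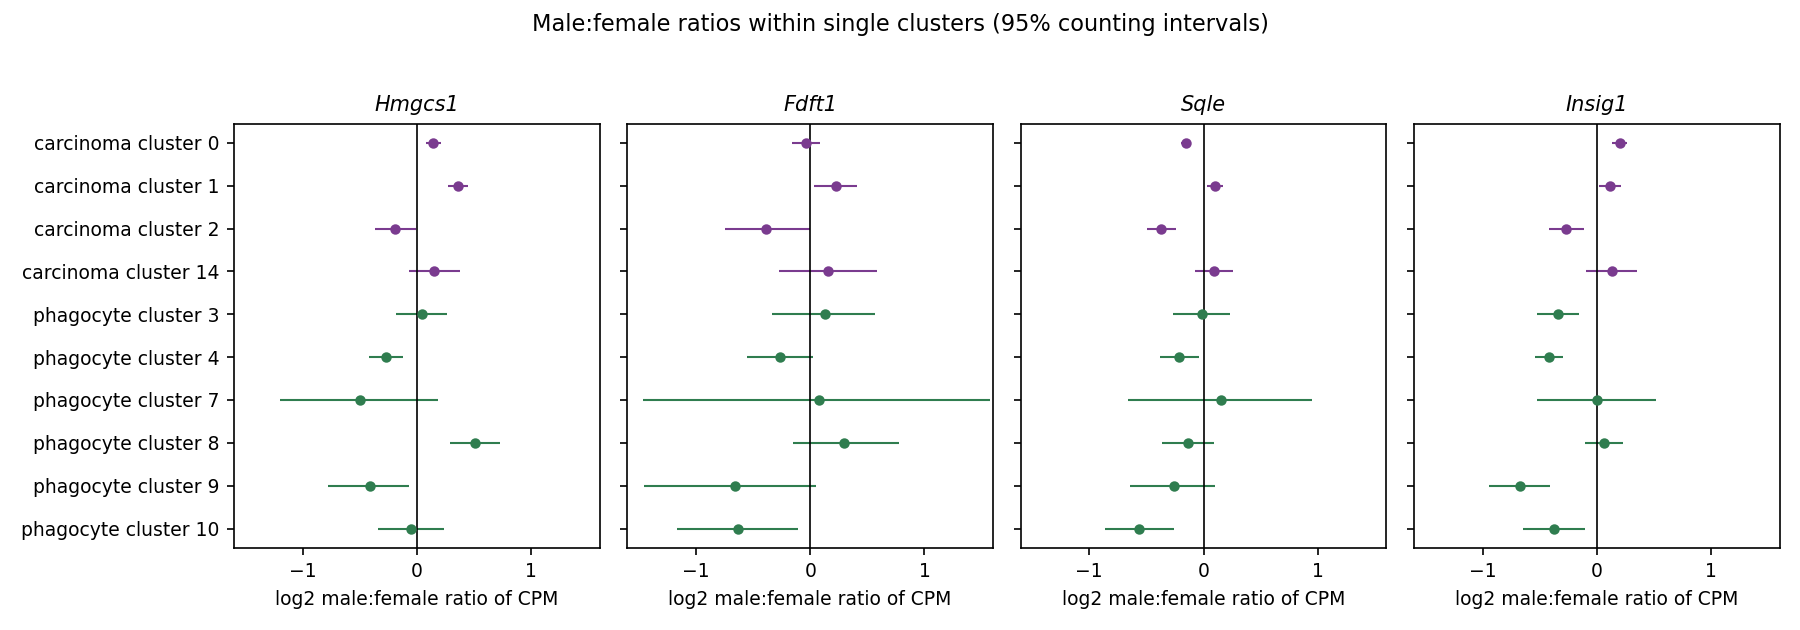
Log2 male to female ratio of CPM of 4 genes within each carcinoma cluster (purple) and phagocyte cluster (green) of at least 50 cells in both libraries, with 95% counting intervals. Insig1 lies left of 0 with its interval in 4 of 6 phagocyte clusters, and carcinoma cluster 2 lies left of 0 in all panels.

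From cell to cell within a class and library, the members tended to be high together. Correlations were taken over cells of at least 5000 UMIs, each thinned to 5000, so that the points share a library and have equal depth; they are descriptions over cells of 1 library, not over animals, and Idi1 was too sparse to enter. In carcinoma cells of the male host (4030 cells) the 6 pairs had Pearson r from 0.0801 to 0.232, and in the female host (3018 cells) from 0.093 to 0.225. The median over all pairs of 7142 genes was 0.00076 in the male host, with a 95th percentile of 0.0391, and the 95th percentile over 7154 genes in the female host was 0.0421. In phagocytes the pairs ran from 0.0608 to 0.175 in the male host (2086 cells, 95th percentile 0.0503) and from 0.0235 to 0.138 in the female host (2140 cells, 95th percentile 0.0454). All 24 values were positive, and 23 were above the 95th percentile of their group, the exception being Insig1 and Fdft1 in female phagocytes. The genes compared were those of at least 15 CPM, and not pairs of like mean as had been planned. Sqle, Hmgcs1 and Insig1 lay far above that mark, so the percentile is not on one footing with them. In both carcinoma groups Hmgcs1 and Sqle were the closest pair, at 0.232 and 0.225, and Insig1 and Fdft1 the least close in all 4 groups. All of these are weak correlations in sparse counts. Thinned to 5000 UMIs, at least 1 UMI of each of the 4 genes was present in 4.14% and 4.71% of these carcinoma cells and in 1.2% and 1.68% of these phagocytes. Before thinning the shares were 23.7% and 24.2%, and 10.1% and 12%, at median depths of 12422 and 12310 UMIs in carcinoma cells and 11550 and 11238 in phagocytes.

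**Figure D4:**
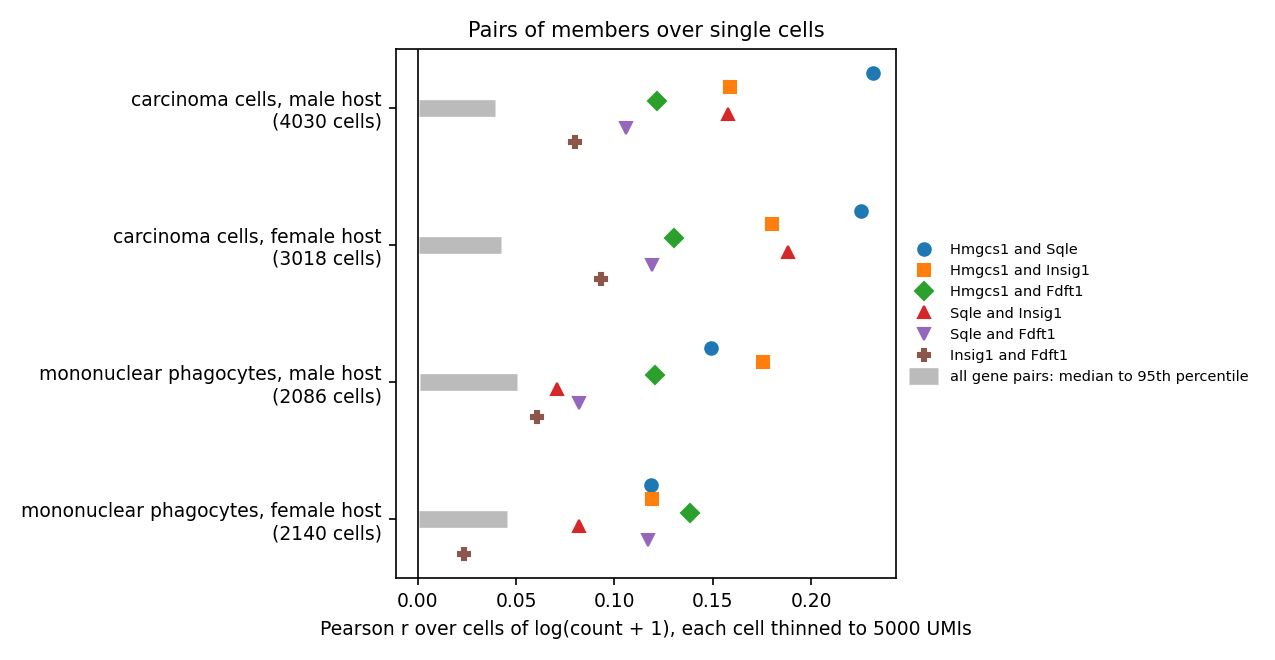
Pearson r over single cells of log(count + 1) for each pair of 4 genes, cells thinned to 5000 UMIs, by class and host. Grey bars run from the median to the 95th percentile over all pairs of genes of at least 15 CPM in that class and library. Of the 24 points 23 lie beyond the bar, and Insig1 with Fdft1 in female phagocytes (0.0235) lies within it.

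The genes nearest to the members over single cells were sterol genes as well. Without thinning, on log-normalised counts and against the mean of the 4 members, 6 of the 10 nearest genes in carcinoma cells of either host, 8 of 10 in male and 9 of 10 in female phagocytes were in the sterol and lipid lists used below. Msmo1 and Cyp51, which encode enzymes that strip methyl groups from the sterol ring, were nearest among them in all 4 groups. Their r was 0.496 and 0.469 in male and 0.481 and 0.511 in female carcinoma cells, and 0.408 and 0.418 in male and 0.431 and 0.404 in female phagocytes. Stard4, a sterol carrier, Sc5d, a late sterol desaturase, and Scd2, a fatty acid desaturase, were in the listed genes of all 4 groups. These values share each cell's depth.

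Across the 20 groups of class and library the gene nearest to each member was in none of these lists. By Pearson r of log2(CPM + 10) among 4255 genes, Sqle was closest to Psmd7, a proteasome subunit gene, at 0.953, Hmgcs1 to Xpnpep1, an aminopeptidase gene, at 0.899, Insig1 to Dync1i2, a dynein subunit gene, at 0.871, Fdft1 to Hcfc1r1 at 0.846, and Idi1 to Rab21 at 0.746. Among the members, Insig1 and Sqle had 0.864, Hmgcs1 and Sqle 0.818, Hmgcs1 and Fdft1 0.817, and Idi1 and Sqle 0.178. Sqle was thus at rank 3 among the genes nearest to Insig1. For Fdft1, Npc2 of the uptake list was at rank 2, with 0.822, and Hmgcs1 at rank 3. The 20 points share 4 libraries, and their depth differs by class.

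The rest of the pathway was read from 49 genes in 7 lists, counted where a pair of groups had at least 20 UMIs. Of the mevalonate and squalene list, 3 of 6 measured genes were at least 1.5-fold higher in carcinoma cells than in phagocytes in both hosts, and 2 were at least as far lower, beside 40.8% (male host) and 39.7% (female host) of well-counted genes higher and 28.9% and 28.2% lower. The same shares apply to the counts of the other lists in this comparison. Pmvk, phosphomevalonate kinase, was lowest at 23.7 against 146 CPM (male host) and 18.9 against 124 CPM (female host; log2 ratios -2.62 and -2.72). Fdps, farnesyl diphosphate synthase, was highest at 1.26 and 0.84, with 8 near-identical gene copies that make its counts uncertain. Acat2, a thiolase gene, was at 52.8 against 32.7 CPM and 47.8 against 30.9 CPM. The sterol steps after squalene were split, 2 higher and 3 lower of 10 for the male host and 4 and 3 for the female host. Msmo1 was at 216 against 155 CPM and 245 against 156 CPM, and Cyp51 at 192 against 169.97 CPM and 189 against 168 CPM. Tm7sf2, a sterol reductase gene, was lowest, at log2 ratios of -1.56 and -1.61. The highest were Lss, lanosterol synthase, at 0.95 in the male host, and Sc5d at 1.00 in the female host. Neither list thus followed Sqle, Hmgcs1 and Fdft1 as a whole, with medians of 0.11 and -0.04 (male) and 0.25 and 0.09 (female).

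The regulators of SREBP were at least 1.5-fold higher in carcinoma cells for 5 of 7 genes in both hosts, with 0 lower, where 40.8% and 39.7% of well-counted genes were higher and 28.9% and 28.2% lower. Insig2, the paralogue of Insig1, was at 244 against 38.1 CPM (male host) and 292 against 39.8 CPM (female host), a ratio of 6.39 (6.0 to 6.82) and 7.34 (6.91 to 7.80). Insig1 itself was at 1.34 and 1.01, so the paralogues differed between the classes by unequal amounts. Srebf2, which encodes SREBP2, was at 280 against 184 and 254 against 159 CPM, and Scap was least different, at log2 ratios of 0.18 and 0.15.

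Of the 8 genes of sterol uptake and release from lysosomes, 3 were higher and 4 lower in carcinoma cells in the male host and 3 and 3 in the female host. Npc2, a lysosomal sterol carrier, had most UMIs, at 1474 against 1057 CPM and 1804 against 1235 CPM. The lipoprotein receptor gene Vldlr read 27.6 against 0.147 CPM and 33.2 against 0.304 CPM, and the scavenger receptor gene Msr1, a macrophage gene, 0.136 against 1005.5 CPM and 0.119 against 1069 CPM. Scarb1, the receptor for high-density lipoprotein, was at 37.4 against 146 CPM and 27.4 against 112 CPM. Of the 7 efflux and LXR genes, 0 were higher and 6 lower in carcinoma cells in both hosts. Again 40.8% and 39.7% of well-counted genes were higher and 28.9% and 28.2% lower. Nr1h2, the LXR beta gene, was highest at log2 ratios of 0.14 and 0.06. Apoe read 2.49 against 4324 CPM and 2.59 against 2735 CPM, and the cholesterol exporter gene Abca1 54.9 against 323 CPM and 83.4 against 335 CPM. The esterification list was lower in 3 of 3. Soat1, which stores cholesterol as ester, read 49.8 against 248 CPM and 62.0 against 326 CPM, Nceh1, an ester hydrolase gene, 19.6 against 87.1 CPM and 24.0 against 97.4 CPM, and Soat2 1.43 against 5.42 CPM and 2.64 against 9.06 CPM. Of the 7 fatty acid genes, 4 and 5 were higher and 2 lower, with Scd1 at 229 against 74.0 CPM and 259 against 43.2 CPM and Scd2 at 866 against 353 CPM and 1018 against 365 CPM. The lowest were Acly, ATP citrate lyase, at a log2 ratio of -1.12 in the male host, and Elovl6 at -1.69 in the female host.

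**Figure D5:**
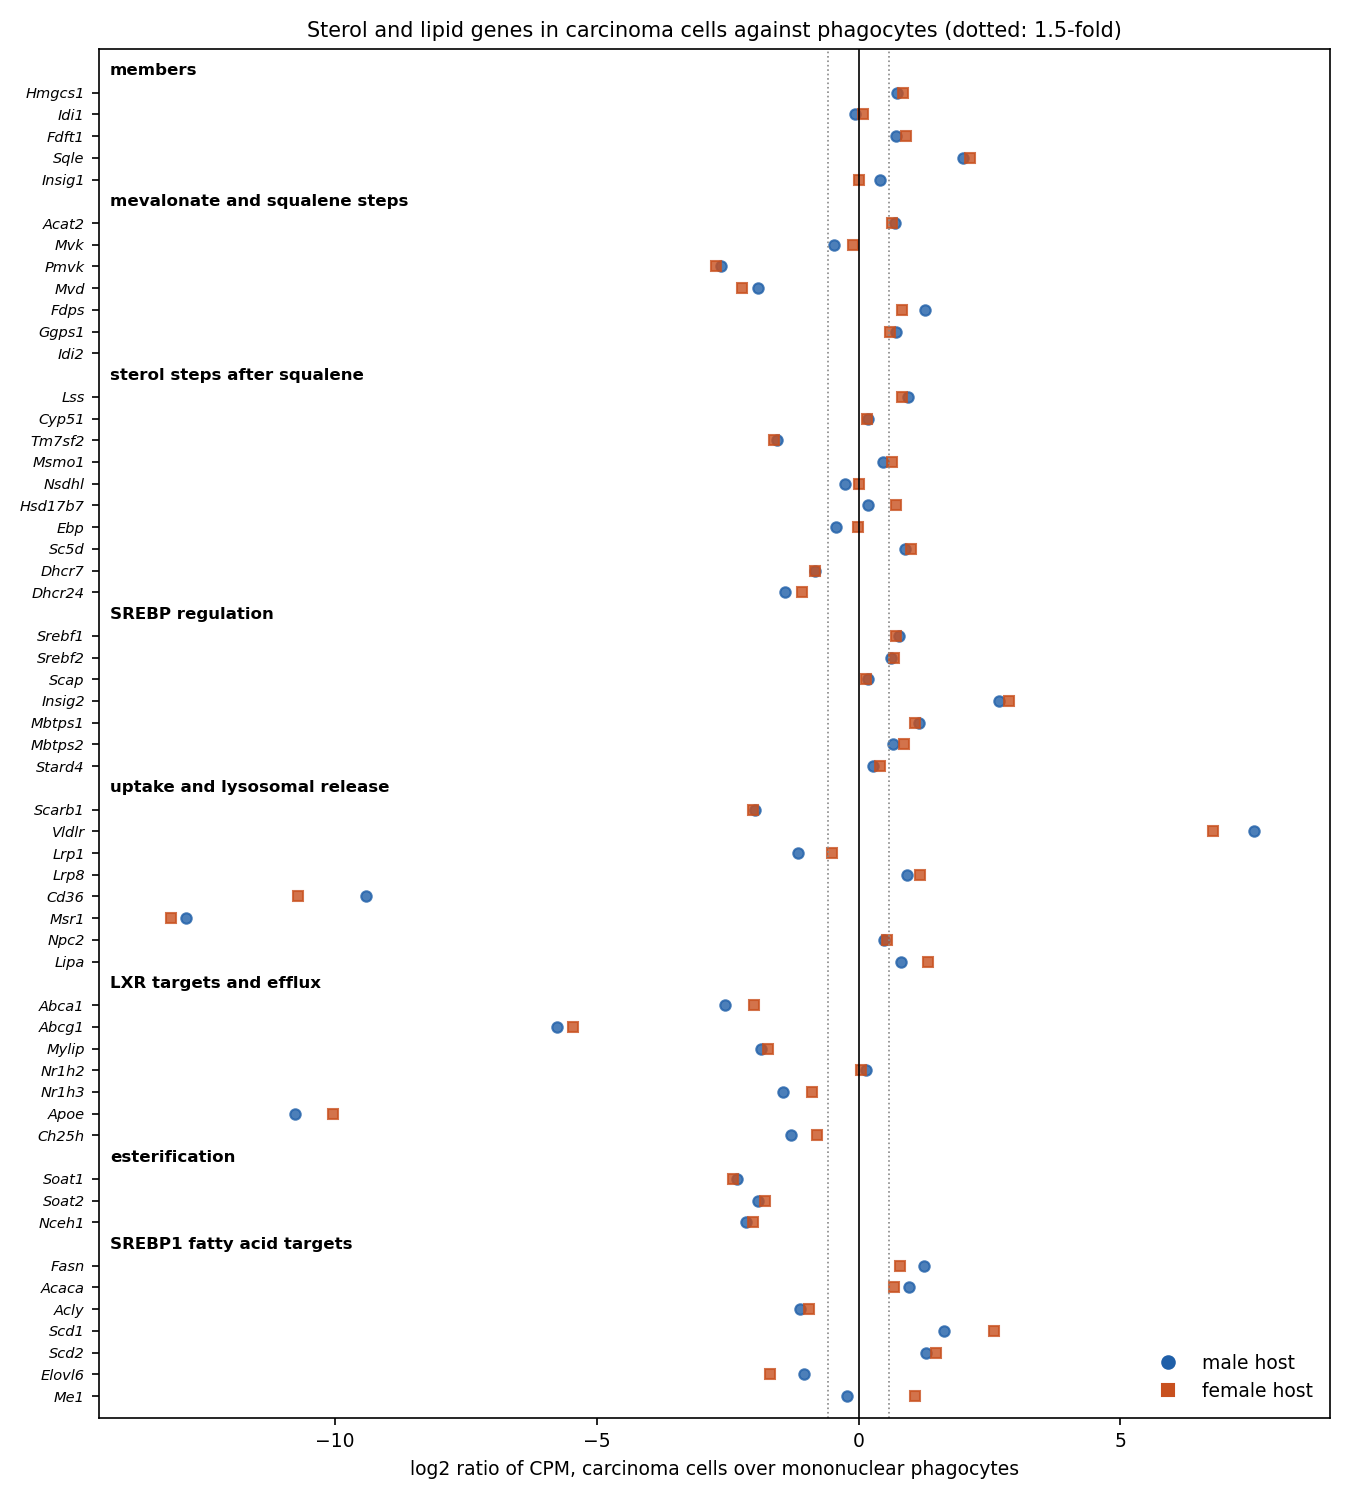
Log2 ratio of CPM in carcinoma cells over mononuclear phagocytes for the 5 genes and the 7 lists, male host as circles and female host as squares, with dotted lines at 1.5-fold; Idi2 had under 20 UMIs and no point. Sqle (1.99 and 2.12) is the farthest right of the 5 genes, Insig2 of the regulators (2.68 and 2.88), and the efflux genes other than Nr1h2 lie on the left.

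Between the hosts 7 of 47 measured list genes (14.9%) passed 1.5-fold in carcinoma cells, 6 of them lower in the male host, beside 9.8% of well-counted genes and 0 of the 5 members. The well-counted genes had to reach a higher count than the list genes, so the shares are not on one footing. In these cells 0 of 10 genes after squalene and 0 of 7 SREBP regulators passed in either direction, and the mevalonate list had 1, Idi2, at 11 and 16 UMIs. Ch25h, which makes an oxysterol that keeps SREBP in the endoplasmic reticulum, was at 7.88 CPM (male host) and 21.5 CPM (female host), a ratio of 0.367 (0.327 to 0.411), and Abca1 was at 0.658 (0.627 to 0.69). Lrp1 in the uptake list was at 0.655 (0.629 to 0.681) and the fatty acid elongase gene Elovl6 at 2.0 (1.75 to 2.29). Soat2 was at 0.543 (0.404 to 0.728) and Me1, malic enzyme, at 0.622 (0.272 to 1.40) on 13 and 15 UMIs. In phagocytes 5 of 46 (10.9%) passed, beside 10.2% of well-counted genes, and 0 of the measured genes of the mevalonate, post-squalene, regulator and uptake lists passed. Ch25h was again lower in the male host, at 19.3 and 37.2 CPM (0.518, 0.466 to 0.575), while Apoe was at 1.58 (1.57 to 1.6), Nr1h3, the LXR alpha gene, at 1.63 (1.44 to 1.86) and Scd1 at 1.72 (1.6 to 1.84). Soat2 was lower again, at 0.598 (0.485 to 0.733).

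The smaller classes had larger shares of list genes past 1.5-fold than carcinoma cells and phagocytes. CD8 T cells had 22.2% and NK cells 36.8%, beside 13.2% and 11.8% of well-counted genes. Neutrophils had 19.2% and mature dendritic cells 33.3%, beside 14.2% and 16.1%. In regulatory T cells 7 of 34 measured list genes were higher in the male library, beside 8.55% of well-counted genes in that direction. In fibroblasts 6 of 27 were, beside 13.5%. In the other direction 8 and 7 passed, and no share over all genes is given for it here. List genes were counted from 20 UMIs, so the shares are not on one footing. In CD4 T cells 9 of 31 measured list genes (29%) passed, beside 10.4% of well-counted genes. Idi2, the paralogue of Idi1, read 220 CPM on 124 UMIs in the male and 16.04 CPM on 9 UMIs in the female library, a ratio of 13.7 (6.98 to 30.7). Those UMIs sat in 11 of 203 and 3 of 159 cells, with up to 34 in a single cell, so the interval understates the error.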

How the data were processed

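Single cells of MB49 tumours were sorted by CD45 and captured on BD Rhapsody, per the labels' protocols, and the authors deposited 4 matrices of raw UMI counts per gene and cell, 1 for each library. CASAVA 1.8, UMI-tools, Seurat and mm10 are named in the submitters' processing notes; neither the aligner nor the use of strand is stated in the sources used here. The members and the gene lists were chosen with earlier results of these data known.

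Barcodes were kept from 500 UMIs and 250 genes upwards, if no more than 25% of their UMIs were mitochondrially encoded (scanpy 1.11.5, numpy 2.4.6, Python 3.11.15). A doublet caller marked 3 cells in all, too few for it to have worked. Kept cells were clustered on 2000 variable genes and 30 components (Leiden resolution 1.0, 26 clusters), and clusters were named from fixed marker lists. Counts were summed per class and library and scaled to CPM, with exact Poisson intervals for levels, exact Clopper-Pearson intervals for shares and exact conditional binomial intervals for ratios (scipy 1.17.1), all at 95% and covering counting error only. A class needed 20 cells in a library for a level. The comparison of hosts was planned for both gates and for the classes with at least 100 cells in each library, and smaller classes are given for completeness. A gene counted as past the mark at 1.5-fold, and members and list genes were counted from 20 UMIs in the pair. The background was every gene with at least 100 UMIs in the pair and 100 CPM in either group, leaving out mitochondrial, ribosomal, haemoglobin, immune receptor, sex-linked and unnamed genes. Depth per library is given with the results. The interval steps were tested on simulated data, and the thinning step was not.

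Named were the 5 members in every class and, of each list in carcinoma cells against phagocytes, the genes with the highest and lowest ratio and the 2 with most UMIs; the list genes past 1.5-fold between hosts in these classes and any other listed gene were chosen after their values were seen. Near-identical copies were sought with BLAST+ 2.17.0+ (at least 90 bases at 90% identity). Alternatives were another minimum depth, other cluster resolutions, other scaling, removal of high doublet scores, thinning to 1000 UMIs, removal of the cell with most UMIs, and the mean of each cell's CPM; 3 others, adding the unnamed cluster, averaging over clusters, and taking the carcinoma cells from the same library as the phagocytes, were chosen after seeing the data.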

Additional observations from a re-analysis of the deposited data

Results flagged for a closer look

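The male to female ratio of Insig1 pointed in opposite directions in different cell classes, each with a counting interval that left out 1. On the log2 scale it was 0.1489 in carcinoma cells, 0.9205 in regulatory T cells and 0.6701 in fibroblasts, and -0.2514 in mononuclear phagocytes and -0.4970 in mature dendritic cells. With 1 library a group the difference between these classes was not tested. The regulatory T cell, fibroblast and mature dendritic cell values rest on 72, 33 and 82 cells in the smaller library. The carcinoma value was -0.01 with cells thinned to 1000 UMIs. In carcinoma cluster 2 alone it was -0.27, with an interval that left out 1. It also had the opposite sign in the carcinoma cells of the CD45-positive libraries, with an interval that held 1.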

How the results depend on the processing

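Among 302 alternative log2 male to female ratios of single members, 273 stayed within their counting interval and 29 did not. A change of sign was seen in 36, and 0 of those started past 1.5-fold. On thinning to 1000 UMIs 3 of the 36 ended past it: Hmgcs1 went from 0.53 to -0.61 in CD8 T cells and from -0.29 to 1.46 in neutrophils, and Insig1 from 0.34 to -0.64 in NK cells. Of 142 alternative counts of members past 1.5-fold, 15 moved. With carcinoma cells of the phagocytes' own library the count higher in carcinoma cells was 1 in place of 3 with a male host, and the count lower was 1 in place of 0 with a female host. Thinning to 1000 UMIs gave 1 in place of 0 higher in the female library for the CD45-negative gate and for CD8 T cells, 1 in place of 0 higher in the male library for CD4 T cells and for neutrophils, and 0 in place of 1 in the male library for CD8 T cells. In CD8 T cells the male count was 2 with at least 2000 UMIs per cell and 2 without the cell with most UMIs of the member, and the female count was 1 at Leiden resolution 2.0 and 1 with the mean of each cell's CPM. That mean also gave 1 for the male library in CD4 T cells and 1 for the female library in neutrophils. The NK cell count of 1 in the female library was 0 at Leiden resolution 2.0 and 0 without the cell with most UMIs, where Fdft1 fell under 20 UMIs. The cause was not tested for the others. The counts between hosts in carcinoma cells and mononuclear phagocytes, over members with at least 20 UMIs, were 0 under all alternatives run; thinned Idi1 in carcinoma cells was at -0.91 on the log2 scale but under 20 UMIs and so not counted. Insig1 in phagocytes ran from -0.29 to -0.20 on the log2 scale and Sqle in carcinoma cells from -0.16 to -0.08. Of the other sign changes, in carcinoma cells Insig1 was -0.01 and Fdft1 0.20 when thinned, and Hmgcs1 was -0.02 with the mean of each cell's CPM. Of 90 shares of cells, 78 moved on thinning, 28 with at least 2000 UMIs per cell and 0 without the highest doublet scores; other scaling does not apply to shares. No paired analysis was possible because each group had 1 library and the labels give no replicate numbers. Few UMIs limit the reading of Idi1 in every class and of all members in neutrophils.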
